A study of Homo sapiens with 30 samples.

Results

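The mRNAs of 10 human amino acid transporters were followed in diffuse large B-cell lymphoma (DLBCL) cell lines treated with AZD8186, an inhibitor that acts mainly on PI3Kβ and also on PI3Kδ. The members were chosen by exact match of the gene symbol and make up 10 of the 21112 genes listed in every library. They are SLC7A5, SLC3A2, SLC1A5, SLC1A4, SLC7A11, SLC7A1, SLC7A6, SLC38A1, SLC38A2 and SLC43A1. All 10 were found, and all 10 passed the filter on low counts in every test.

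RNA was sequenced from 2 lines of the activated B-cell-like (ABC) subtype, OCI-Ly10 and TMD8, and from 2 lines of the germinal center B-cell-like (GCB) subtype, HT and K422. All 4 lines had been picked by the study because AZD8186 slows their growth, so no resistant line is among them. Cells received 0.5 µM AZD8186 or DMSO for 6, 12, 18 or 24 h, and TMD8 has no library at 12 h. This gave 30 libraries in 15 pairs of the same line and time point, with 1 library for each line, treatment and time. The time points of a line therefore stand in as its replicates, and nothing in the labels names separate cultures, so each p-value reflects how far the sequenced libraries vary, and part of that variation can be technical. The sample labels name DMSO for all controls, whereas the series' design text calls the controls untreated.

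Free amino acids cross the plasma membrane through carriers of the solute carrier (SLC) families, and proliferating lymphocytes depend on them for protein synthesis and for keeping mTORC1 active at the lysosome. LAT1, encoded by SLC7A5, imports leucine and other large neutral amino acids in exchange for glutamine and needs the heavy chain CD98, encoded by SLC3A2, to reach the cell surface. The glutamine that LAT1 exports enters through ASCT2 (SLC1A5) and through the sodium-coupled carriers SNAT1 (SLC38A1) and SNAT2 (SLC38A2). ASCT1 (SLC1A4) carries alanine, serine, cysteine and threonine, CAT1 (SLC7A1) carries arginine and lysine, y+LAT2 (SLC7A6) exchanges cationic for neutral amino acids and also pairs with CD98, xCT (SLC7A11) imports cystine in exchange for glutamate with the same heavy chain, and LAT3 (SLC43A1) carries large neutral amino acids on its own. PI3K signaling feeds into mTORC1, which in turn acts on the ATF4 program that controls many of these genes.

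The libraries held 15820230 to 23579029 expected counts (reads assigned to genes, median 18591638), and no pair of libraries had identical values. The share of ribosomal RNA ranged from 0.69% to 4.354% and was highest in the TMD8 library with AZD8186 at 6 h. Ribosomal protein genes took a larger share under AZD8186, with a median of 24.2% against 19.35% under DMSO in the ABC lines and of 17.1% against 14.8% in the GCB lines. The summed TPM (a relative transcript level corrected for gene length) of 5 B-cell markers lay between 1192 and 3213 in all libraries. IRF4, which marks the ABC subtype, lay between 78.0 and 205.75 TPM in OCI-Ly10 and TMD8 and did not exceed 0.04 TPM in HT and K422. MME (CD10) lay at 22.41 TPM or above in HT and K422 and at 0.57 TPM or below in the ABC lines, whereas LMO2, another germinal center marker, was listed at 0 in HT and reached 35.44 TPM in TMD8. Of 4 T-cell markers, CD3D lay between 61.64 and 87.31 TPM in K422 and CD5 between 20.74 and 29.46 TPM in OCI-Ly10. The other T-cell markers were at or near 0 in these lines, with CD2 at 0, CD5 at most 0.03 and CD3E at most 1.65 TPM in K422, and CD3D at most 0.48, CD3E at most 0.05 and CD2 at most 1.81 TPM in OCI-Ly10. The summed myeloid markers never exceeded 1.28 TPM.

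Some features of the lines limit them as a model for these genes. The study's methods state that its lines were engineered to carry a murine ecotropic receptor, and that receptor is the mouse homolog of SLC7A1. Whether the sequenced cultures carried that receptor, and whether its reads count as SLC7A1, cannot be told from the expected counts. The methods place OCI-Ly10 and TMD8 in Iscove's medium and the others in RPMI, whereas the sample labels name RPMI for all 4 lines, so the culture medium and the subtype may not be separable. In bulk RNA, fewer expressing cells and less RNA per cell cannot be told apart. The genes lie on GRCh38 at chr16:87830023-87869488 (SLC7A5, minus strand), chr11:62856102-62888875 (SLC3A2, plus), chr19:46774883-46788594 (SLC1A5, minus), chr2:64988477-65023865 (SLC1A4, plus), chr13:29509410-29595688 (SLC7A1, minus), chr16:68264516-68301823 (SLC7A6, plus), chr4:138164097-138242349 (SLC7A11, minus), chr11:57484534-57515786 (SLC43A1, minus) and, beside each other, chr12:46183063-46270017 (SLC38A1, minus) and chr12:46358189-46372867 (SLC38A2, minus). Each value sums the reads assigned to the annotated transcripts of a gene. SLC7A5 has near-identical copies, of which SLC7A5P2 held 12 to 42 counts, equal to 0.0946% to 0.415% of SLC7A5.

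Under DMSO, 3 genes carried most of the transporter mRNA in all 4 lines, namely SLC7A5, SLC3A2 and SLC1A5. SLC7A5 had the highest level of the set in TMD8 and K422, SLC1A5 in OCI-Ly10 and SLC3A2 in HT. The summed TPM of the 10 genes was 768 ± 64.6 (SD, n = 4) in OCI-Ly10, 749 ± 41.6 (n = 3) in TMD8, 684 ± 23.9 (n = 4) in HT and 1100 ± 68.4 (n = 4) in K422. SLC7A5 made up 20% of that sum in OCI-Ly10, 31.3% in TMD8, 29.6% in HT and 38.0% in K422. SLC1A5 made up 35.3%, 22.9%, 20.7% and 15% of the same sum, in the same order of lines.

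**Figure D1:**
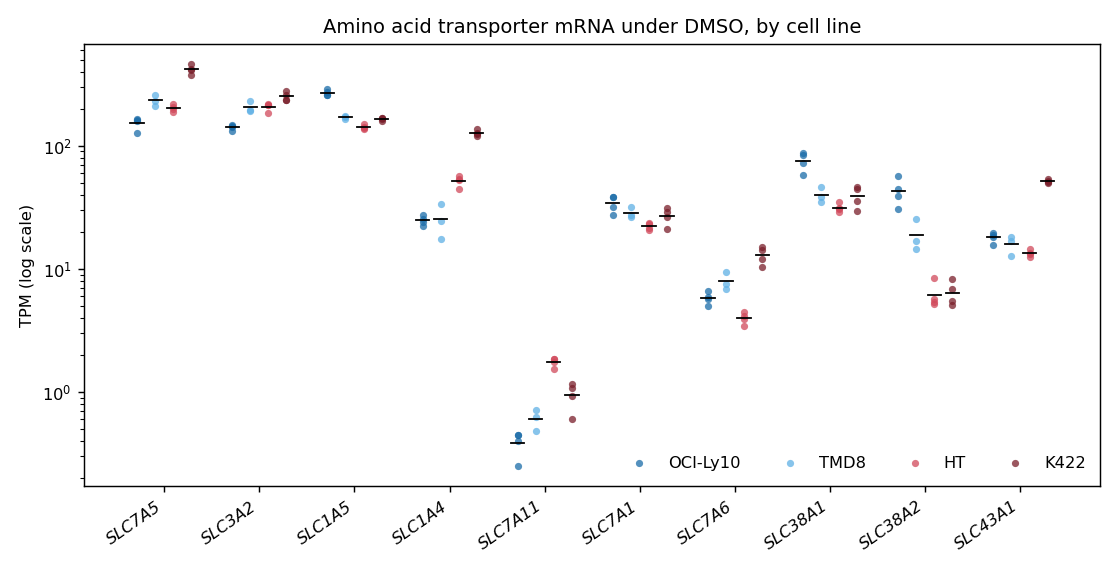
TPM (log scale) of each transporter in the DMSO libraries of OCI-Ly10, TMD8, HT and K422, with 1 point per time point and a bar at the mean. SLC7A5, SLC3A2 and SLC1A5 lie at or above 127 TPM in every line, SLC7A11 below 2 TPM, and SLC38A2 separates the ABC from the GCB lines.

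Levels between lines were compared with edgeR's quasi-likelihood test on the 15 DMSO libraries, for which 51 of 60 member contrasts (10 genes, 6 pairs of lines) passed an adjusted p of 0.05. Of all 12596 genes tested, between 68.0% and 80.9% passed in each of these contrasts, so a difference between lines was the rule for genes in general. TMD8 had 4 members below and 4 above OCI-Ly10 (69.3% of genes passed, 34.7% as lower and 34.6% as higher). HT had 6 below and 3 above OCI-Ly10 (80.6%, 41.8% and 38.8%), and K422 had 4 below and 6 above it (80.9%, 41.5% and 39.4%). Against TMD8, HT had 8 members below and 2 above (76.4%, 40.4% and 36.0%) and K422 5 below and 4 above (77.1%, 40.5% and 36.6%). K422 had 1 member below and 4 above HT (68.0%, 33.9% and 34.1%). On the TPM scale the median gene was higher by 0.17 to 0.29 (log2) in a GCB than in an ABC line, while it moved by 0.05 or less on the scale of the test, and the share of ribosomal protein genes was lower in the GCB lines. The split of lower and higher genes for K422 against OCI-Ly10, for example, went from 5228 and 4967 to 3602 and 6777. Several contrasts that passed in the count test did not pass on log2(TPM + 1). For HT against TMD8 these were SLC43A1 (-0.57 in the count test and -0.22 in TPM), SLC38A1 (-0.55 and -0.26), SLC7A5 (-0.52 and -0.21) and SLC3A2 (-0.29 and -0.00067). For K422 against TMD8 they were SLC7A1 (-0.47 and -0.032), SLC1A5 (-0.45 and -0.039) and SLC38A1 (-0.38 and 0.024), and for TMD8 against OCI-Ly10 SLC7A11 (0.56 and 0.17).

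SLC38A2 differed most between lines. Its level was 43.0 ± 11.2 TPM (SD, n = 4) in OCI-Ly10 (30.86, 38.9, 44.92 and 57.37 at 6, 12, 18 and 24 h) and 18.9 ± 5.74 TPM in TMD8 (14.48, 16.89 and 25.4). It was 6.15 ± 1.49 TPM in HT and 6.42 ± 1.42 TPM in K422, and no GCB library overlapped with an ABC library. The fitted level in HT was 8.43-fold below OCI-Ly10 (log2 -3.07, SE 0.074, adjusted p = 7.04e-17) and 3.61-fold below TMD8 (log2 -1.85, SE 0.079, adjusted p = 2.65e-13). HT and K422 did not differ beyond their spread (log2 -0.069, SE 0.075, adjusted p = 0.428). SLC38A1, the other sodium-coupled glutamine carrier, had its highest level in OCI-Ly10 as well, at 75.5 TPM against 39.7 in TMD8, 31.5 in HT and 39.1 in K422.

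SLC1A4, in contrast, was higher in the GCB lines. It stood at 24.9 ± 2.12 TPM in OCI-Ly10 and 25.3 ± 8.21 TPM in TMD8, at 52.1 ± 5.23 TPM in HT and at 128 ± 7.43 TPM in K422. K422 was 3.81-fold above OCI-Ly10 (log2 1.93, SE 0.11, adjusted p = 2.01e-11) and 2.23-fold above HT (log2 1.16, SE 0.11, adjusted p = 3.43e-08), and the ABC lines did not differ from each other beyond their spread (log2 -0.019, adjusted p = 0.903). SLC1A5, its closest relative in the set, was highest in OCI-Ly10 at 270 TPM, followed by TMD8 at 171, K422 at 165 and HT at 142. The last pair in that order, HT and K422, did not differ on the scale of the test (log2 0.082, adjusted p = 0.303), and K422 and TMD8 differed in the test (log2 -0.45) but not in TPM (log2 -0.039, adjusted p = 0.548).

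SLC7A5 was highest in K422, at 378.95 to 462.05 TPM in its 4 DMSO libraries. TMD8 followed with 212.8 to 257.32 TPM, HT with 186.99 to 217.34 and OCI-Ly10 with 127.41 to 165.58, so that only TMD8 and HT overlapped. K422 exceeded OCI-Ly10 2.06-fold (log2 1.04, SE 0.072, adjusted p = 2.12e-10), and HT and OCI-Ly10 did not differ in the count test (log2 0.13, adjusted p = 0.109). SLC3A2 ranged less, from 142 ± 6.64 TPM in OCI-Ly10 through 206 in TMD8 and 208 in HT to 253 in K422. The order of TMD8 and K422 for SLC3A2 depended on the scale, with K422 lower in the count test (log2 -0.19, adjusted p = 0.047) and higher in TPM (log2 0.28, adjusted p = 0.00526). Expressed per SLC3A2 transcript, there were 1.08 SLC7A5 transcripts in OCI-Ly10, 1.15 in TMD8, 0.975 in HT and 1.66 in K422.

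SLC7A6 and SLC43A1 were also highest in K422. SLC7A6 stood at 12.9 TPM there, against 7.94 in TMD8, 5.79 in OCI-Ly10 and 4.0 in HT, and all 6 contrasts passed the test. SLC43A1 stood at 51.5 ± 1.48 TPM in K422 against 18.1, 16 and 13.5 in OCI-Ly10, TMD8 and HT, a 3.49-fold difference to HT (log2 1.80, SE 0.081, adjusted p = 9.37e-13). SLC7A1 had the smallest ratio of the highest to the lowest line mean among the 10 genes in TPM, between 22.3 TPM in HT and 34.2 TPM in OCI-Ly10. In the count test its largest contrast, 1.85-fold, exceeded that of SLC3A2, 1.54-fold. SLC7A11 was nearly silent. It never exceeded 1.86 TPM under DMSO, was highest in HT (1.75 ± 0.142 TPM) and lowest in OCI-Ly10 (0.388 ± 0.0946 TPM), and rested on 35 to 294 counts per library.

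With AZD8186, SLC1A5 and SLC7A1 fell in both subtypes and SLC38A1 fell in the ABC lines. The LAT1 genes SLC7A5 and SLC3A2 fell in the GCB lines together with SLC7A6, and SLC1A4 and SLC38A2 rose there. These results are over both lines of a subtype. By line, SLC1A4 rose most in the ABC line TMD8 (log2 1.10), and SLC38A1 also fell in K422 (-0.32). SLC7A5 and SLC3A2 passed as lower in OCI-Ly10 (-0.25 and -0.21) and as higher in TMD8 (0.31 and 0.26). Over both ABC lines 3 of 10 members were lower, by log2 -0.68 for SLC1A5 (SE 0.12, adjusted p = 0.00112), -0.66 for SLC7A1 (SE 0.089, adjusted p = 0.000218) and -0.40 for SLC38A1 (SE 0.071, adjusted p = 0.00127). No member was higher there in edgeR's test. SLC7A11 alone was higher at an unadjusted p below 0.05, DESeq2 called 0 members higher and limma-voom called 1, SLC7A11. Among the 11419 genes tested in the ABC lines 29.1% passed, 13.8% as lower and 15.3% as higher. The split of all genes depended on the scale, with 1577 lower and 1750 higher in the count test and 4279 lower and 620 higher on log2(TPM + 1), where the median gene stood at -0.15 and SLC43A1 and SLC7A6 also passed as lower. The median over the 10 members was -0.04 and over all genes 0.0072.

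Over both GCB lines 5 of 10 members were lower and 2 higher, where 49.4% of 10965 genes passed, 23.5% as lower and 25.9% as higher. SLC7A5 and SLC1A5 fell most, both by 0.78 on the log2 scale, which is 1.72-fold (SE 0.073 and 0.084, adjusted p = 1.7e-06 and 5.37e-06). SLC7A1 and SLC7A6 fell by 0.51 each and SLC3A2 fell by 0.48. SLC38A2 rose by 0.54 (SE 0.082, adjusted p = 9.49e-05) and SLC1A4 rose by 0.46 (SE 0.069, adjusted p = 7.52e-05). On log2(TPM + 1) the split of all genes was 3077 lower and 2086 higher against 2576 and 2840 in the count test. The remaining 3 genes did not pass, with SLC38A1 at -0.16 (adjusted p = 0.054), SLC43A1 at 0.088 and SLC7A11 at -0.051. The median over the 10 members was -0.32, beside 0.025 over all genes.

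**Figure D2:**
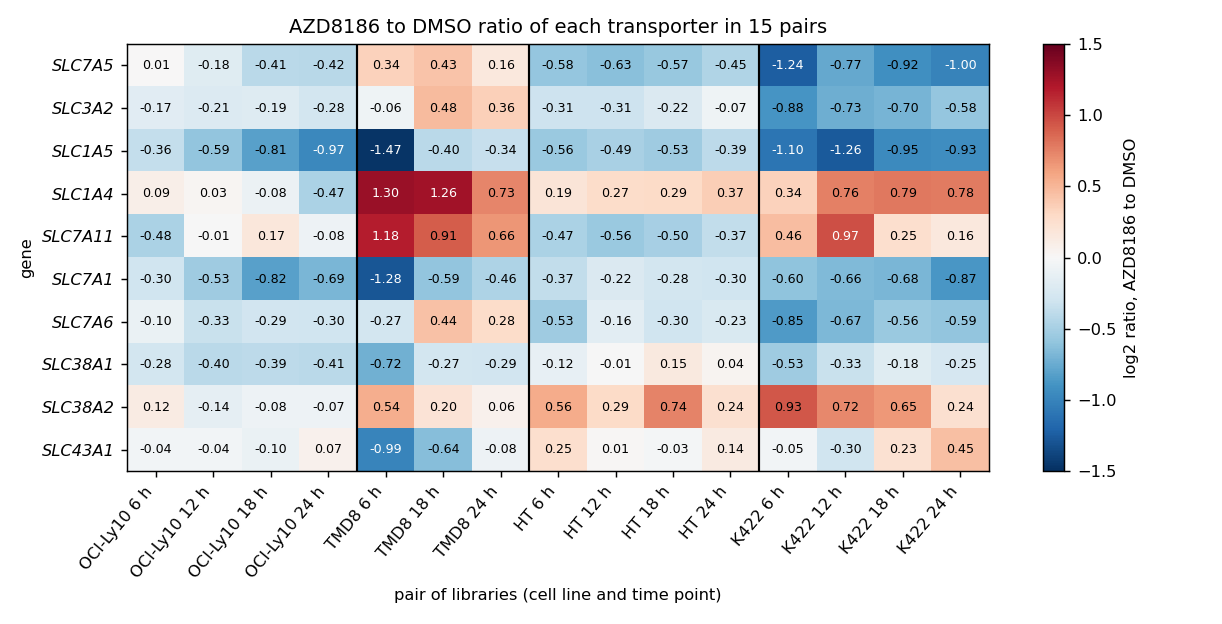
Log2 ratio of AZD8186 to DMSO (log2 CPM, counts scaled to library size) for each transporter in each of the 15 pairs, with blue for lower and red for higher under AZD8186. The rows of SLC1A5 and SLC7A1 are blue in all 15 pairs, and the rows of SLC7A5 and SLC3A2 run from -1.24 and -0.88 in K422 to 0.43 and 0.48 in TMD8.

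SLC1A5 (ASCT2) was lower with AZD8186 in 15 of 15 pairs. In OCI-Ly10 it held 77.7%, 66.5%, 57.0% and 50.9% of the DMSO value at 6, 12, 18 and 24 h, so each later pair lay below the one before. In TMD8 the order was the reverse, with 36.0%, 75.9% and 79.0% at 6, 18 and 24 h. HT stayed between 68.1% and 76.3%, and K422 between 41.7% and 52.7%. In TPM, SLC1A5 stood at 152 ± 36.4 (n = 4) under AZD8186 against 270 in OCI-Ly10, at 91.8 ± 27.7 (n = 3) against 171 in TMD8, at 99 against 142 in HT and at 74.2 against 165 in K422, and in none of the lines did the treated and control libraries overlap. Flipping the signs of the pairs in all combinations, an exact permutation test (two-sided), gave p = 0.0156 for the 7 ABC pairs and p = 0.00781 for the 8 GCB pairs, the smallest values that these numbers of pairs allow. The test treats the pairs as independent, although those of a line share that line. With all pairs lower, its p follows from their number alone and adds no further support.

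SLC7A1 (CAT1) was likewise lower in 15 of 15 pairs, with log2 ratios from -1.28 to -0.22. Its extremes were TMD8 at 6 h, with 10.54 TPM against 27.26, and HT at 12 h, with 17.07 TPM against 20.64. In K422 the 4 libraries with AZD8186 held 12.8 to 18.01 TPM and the 4 DMSO libraries 20.99 to 31.4 TPM. The treated and control libraries did not overlap in any line. The exact p-values for the signs were again 0.0156 and 0.00781, with the same limits. Per line, SLC7A1 passed in OCI-Ly10, TMD8 and K422, and in HT it reached log2 -0.29 with an adjusted p of 0.0553.

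SLC7A5 (LAT1) separated the lines. In K422 it fell from 420.7, 378.95, 462.05 and 414.98 TPM under DMSO to 179.77, 215.37, 224.82 and 175.85 TPM under AZD8186 at 6, 12, 18 and 24 h. In HT the corresponding values were 206.03, 217.34, 200.99 and 186.99 against 131.44, 135.46, 139.13 and 129.64 TPM. The treated libraries of HT and K422 lay below all DMSO libraries of their line from the first time point on. In OCI-Ly10 the pairs went from 127.41 against 130.96 TPM at 6 h to 165.58 against 101.58 TPM at 24 h, so the 6 h pair was level and the later pairs were lower under AZD8186. In TMD8 the 3 treated libraries held 277.16, 235.06 and 231.08 TPM against 232.71, 212.8 and 257.32 TPM, and the groups overlapped.

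The fit with 1 treatment effect per line gave SLC7A5 a log2 change of -0.98 in K422 (SE 0.081, adjusted p = 8.12e-08), -0.56 in HT (SE 0.081, adjusted p = 0.000217), -0.25 in OCI-Ly10 (SE 0.081, adjusted p = 0.0338) and 0.31 in TMD8 (SE 0.093, adjusted p = 0.0288). The value in TMD8 did not pass on log2(TPM + 1), where it was 0.08 (adjusted p = 0.676), nor with TMD8 fitted alone (adjusted p = 0.149), nor without the TMD8 pair at 18 h (0.25, adjusted p = 0.205). On that scale the median of all genes in TMD8 was -0.14. SLC3A2 (CD98) followed the same order of lines with smaller values, at -0.72 in K422, -0.23 in HT, -0.21 in OCI-Ly10 and 0.26 in TMD8, and its value in TMD8 was 0.03 on log2(TPM + 1) (adjusted p = 0.844). Leaving out 1 pair of the 15 at a time ended the SLC3A2 call in 10 of 15 fits for TMD8, in 9 for OCI-Ly10 and in 8 for HT, and in 0 for K422.

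By line, members passed as lower and higher in 5 and 0 cases in OCI-Ly10, where 22.8% of 12910 genes passed, 11.5% as lower and 11.3% as higher. The counts were 4 and 4 in TMD8 (16.9% of genes, 7.63% and 9.26%), 5 and 1 in HT (16.6%, 7.44% and 9.17%) and 6 and 3 in K422 (43.0%, 20.2% and 22.7%). On log2(TPM + 1) the split of all genes was 3579 lower and 669 higher in OCI-Ly10, 3668 and 489 in TMD8 and 3111 and 2041 in K422, against 1483 and 1457, 985 and 1195, and 2612 and 2937 in the count test. SLC1A5 was the one member that passed in the same direction in all 4 lines. Its call in TMD8 was lost with that line fitted alone (-0.73, adjusted p = 0.108), and its call in HT was lost in 4 of 15 fits without 1 pair (adjusted p up to 0.0796). SLC7A1 and SLC38A1 passed as lower in 3 lines each, and in HT SLC38A1 stood at 0.014. Of these 28 calls, 17 held in all fits that left out 1 pair.

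**Figure D3:**
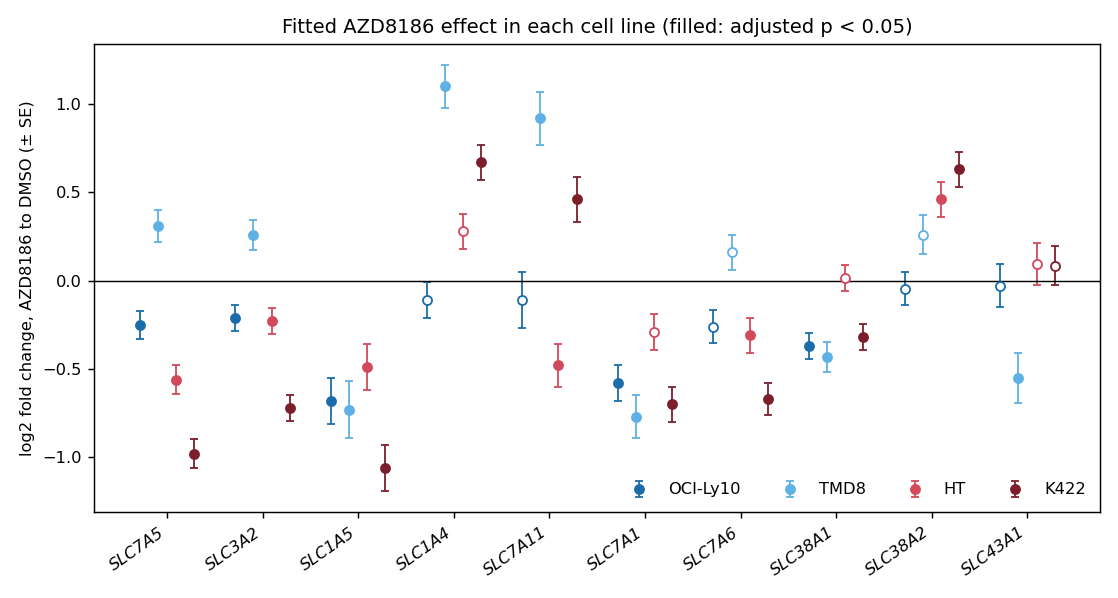
Fitted log2 change with AZD8186 (± SE) for each transporter in each line, with filled points for an adjusted p below 0.05. SLC1A5 is filled and below 0 in all 4 lines, whereas SLC7A5, SLC3A2 and SLC7A11 have filled points on both sides of 0.

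SLC1A4 (ASCT1) was higher in TMD8 and K422. In TMD8 it rose 2.14-fold (log2 1.10, SE 0.12, adjusted p = 1.46e-05), from 17.63, 24.31 and 33.96 TPM to 40.71, 47.71 and 45.24 TPM at 6, 18 and 24 h, with no overlap. In K422 it rose 1.59-fold (log2 0.67, SE 0.098, adjusted p = 2.91e-05), from 120.76 to 138.0 TPM under DMSO to 159.05 to 221.87 TPM. HT reached 0.28 (adjusted p = 0.0607) with 4 of 4 pairs above 0. OCI-Ly10 reached -0.11 (adjusted p = 0.476), and its pairs ran from 0.092 at 6 h to -0.47 at 24 h. TMD8 and OCI-Ly10 differed in their response by 1.2 (SE 0.15, adjusted p = 0.0012), a contrast in which 0.899% of all genes passed, 0.31% as lower and 0.589% as higher.

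The balance between SLC1A4 and its relative SLC1A5 moved the same way in every pair. Per SLC1A5 transcript there were 0.0925 SLC1A4 transcripts in OCI-Ly10 under DMSO and 0.138 under AZD8186, 0.148 and 0.514 in TMD8, 0.367 and 0.622 in HT, and 0.776 and 2.61 in K422. The ratio was higher under AZD8186 in 15 of 15 pairs, by 1.38-fold to 6.69-fold. In K422 SLC1A4 exceeded SLC1A5 in 4 of 4 treated libraries, and it did so in 0 of the other 26 libraries.

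**Figure D4:**
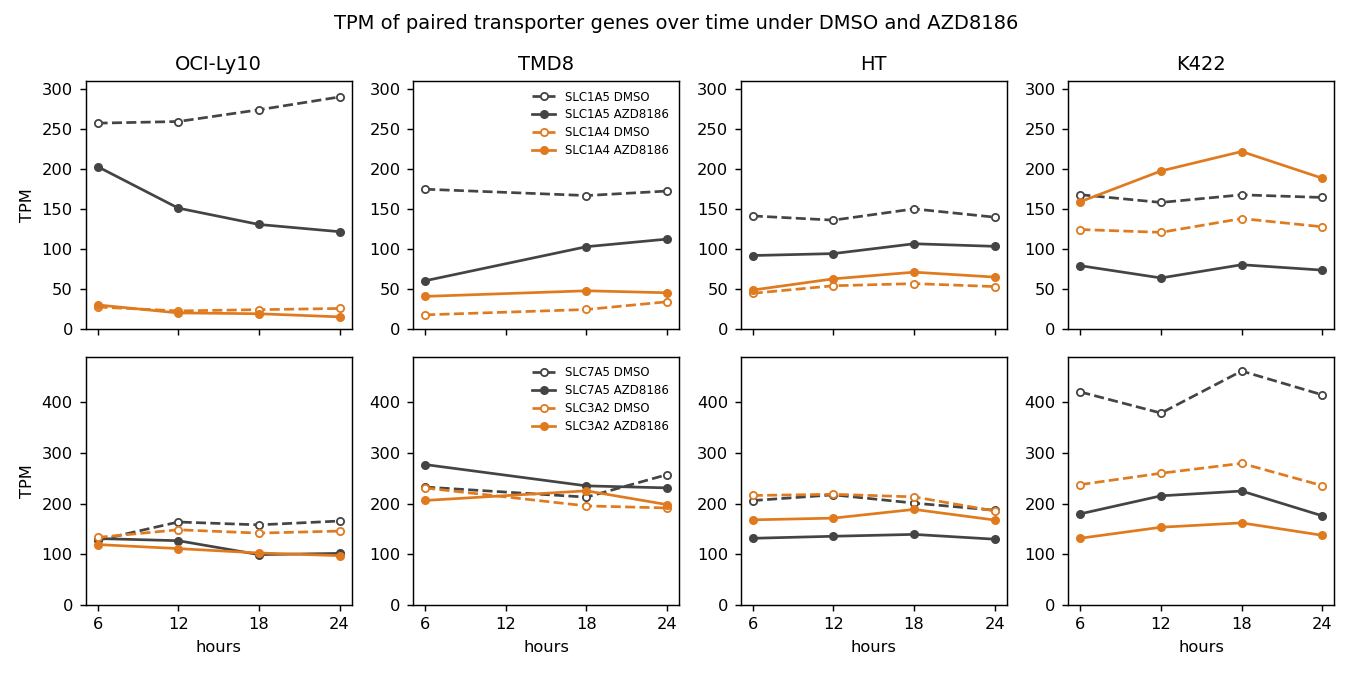
TPM of SLC1A5 and SLC1A4 (upper row) and of SLC7A5 and SLC3A2 (lower row) against hours of treatment in each line, with dashed lines for DMSO and solid lines for AZD8186. In K422 the solid lines of SLC1A4 (159.05 to 221.87 TPM) and SLC1A5 (63.75 to 80.29 TPM) stand in the opposite order to the dashed ones.

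The sodium-coupled carriers SLC38A1 and SLC38A2 also parted. SLC38A1 (SNAT1) was lower in 13 of 15 pairs and passed in OCI-Ly10 (log2 -0.37), TMD8 (-0.43) and K422 (-0.32). With TMD8 fitted alone it did not pass there (-0.43, adjusted p = 0.0936). SLC38A2 (SNAT2), which is known to be induced when amino acids are scarce, was higher in 12 of 15 pairs on log2 CPM. It passed in HT (0.46, SE 0.10, adjusted p = 0.00649) and K422 (0.63, SE 0.10, adjusted p = 9.65e-05). In TMD8 the pairs at 18 and 24 h were higher on log2 CPM but lower in TPM, with 15.86 against 16.89 and 21.29 against 25.4. In K422 the SLC38A2 values were 10.55, 8.16, 9.85 and 8.26 TPM against 5.48, 5.12, 6.81 and 8.25 TPM at 6, 12, 18 and 24 h, so the pair at 24 h was level in TPM. In HT they were 7.34, 6.7, 9.22 and 9.41 against 5.18, 5.67, 5.38 and 8.36 TPM, and the groups overlapped through the DMSO library at 24 h. On log2(TPM + 1) the HT value was 0.37 with an adjusted p of 0.0832, and without the 18 h pair of HT it was 0.36 (adjusted p = 0.0678). SLC38A2 transcripts per SLC38A1 transcript were more numerous under AZD8186 in 15 of 15 pairs, by 1.15-fold to 2.73-fold, with means of 0.565 and 0.711 in OCI-Ly10, 0.471 and 0.761 in TMD8, 0.194 and 0.262 in HT and 0.164 and 0.323 in K422.

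SLC7A5 and its heavy chain SLC3A2 changed by unequal amounts in the GCB lines. The number of SLC7A5 transcripts per SLC3A2 transcript was lower under AZD8186 in 8 of 8 GCB pairs, by a factor between 0.727 and 0.964, and went from 0.975 to 0.772 in HT and from 1.66 to 1.36 in K422. In the ABC lines it was lower in 4 of 7 pairs. SLC7A5 held most of the light chain mRNA throughout, with means from 86.7% to 96.8% of the summed TPM of the CD98 light chains SLC7A5, SLC7A6, SLC7A7, SLC7A8, SLC7A10 and SLC7A11 in each line and treatment.

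**Figure D5:**
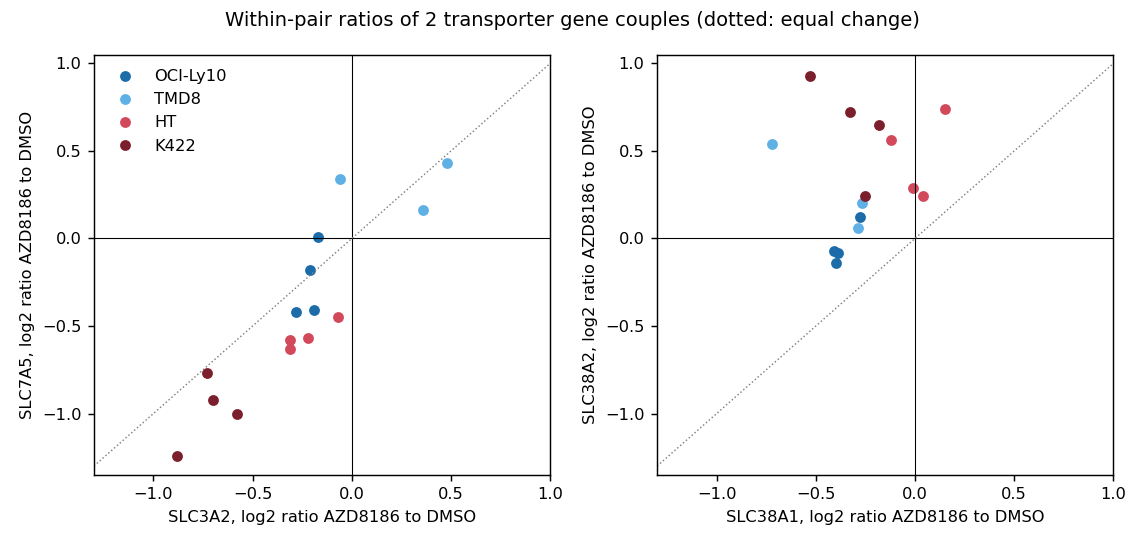
Log2 ratios of AZD8186 to DMSO in the 15 pairs for SLC7A5 against SLC3A2 (left) and SLC38A2 against SLC38A1 (right), colored by line. On the right all 15 points lie above the dotted line of equal change, and on the left the 8 GCB points lie below it.

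SLC7A6 passed as lower in HT (log2 -0.31, adjusted p = 0.0403) and K422 (-0.67, adjusted p = 1.29e-05), from 10.43 to 15.14 TPM under DMSO to 6.33 to 8.84 TPM in K422. The call in HT was lost on log2(TPM + 1) (-0.27, adjusted p = 0.0522) and in 6 of 15 fits without 1 pair (adjusted p up to 0.184). SLC7A11 moved in different directions by line, with 0.92 in TMD8 (SE 0.15, adjusted p = 0.000669), 0.46 in K422 (adjusted p = 0.00815) and -0.48 in HT (adjusted p = 0.0123). At these levels, 0.603 against 0.98 TPM in TMD8 and 1.75 against 1.22 TPM in HT, it contributed little to the sum of the set. The K422 value of SLC7A11 was 0.30 (adjusted p = 0.0818) without the pair at 12 h. SLC43A1 passed in TMD8 alone (-0.55, SE 0.14, adjusted p = 0.013), where the pairs ran from -0.99 at 6 h to -0.08 at 24 h, and the call was lost without the 6 h pair (-0.36, adjusted p = 0.128) and without the 18 h pair (-0.50, adjusted p = 0.103).

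The 6 h pair of TMD8 set the size of several values in that line. It held the lowest ratio of all 15 pairs for SLC1A5 (-1.47), SLC7A1 (-1.28), SLC38A1 (-0.72) and SLC43A1 (-0.99), and the highest for SLC1A4 (1.30) and SLC7A11 (1.18). Without it the TMD8 values were -0.37 for SLC1A5 (adjusted p = 0.0403), -0.53 for SLC7A1 (adjusted p = 0.00212), -0.28 for SLC38A1 (adjusted p = 0.0372), 1.0 for SLC1A4 (adjusted p = 0.000174) and 0.80 for SLC7A11 (adjusted p = 0.00745). SLC3A2 then stood at 0.42 (adjusted p = 0.00265) and SLC7A6 at 0.36 (adjusted p = 0.0152), while SLC7A5 no longer passed (0.30, adjusted p = 0.1). The treated library of that pair had 4.354% ribosomal RNA against 2.691% in its control, and whether this played a part was not tested. Over both ABC lines, SLC1A5, SLC7A1 and SLC38A1 still passed without it, at -0.58, -0.57 and -0.34.

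The difference of the AZD8186 effect between the subtypes was tested directly, as the mean effect in HT and K422 minus that in OCI-Ly10 and TMD8. The fit held an effect for each line, so the spread in this test came from pairs within lines. Its p-values therefore describe these lines and cannot be carried over to the subtypes at large. With 15.8% of 12910 genes passing, 3 members had a lower effect in the GCB lines (7.43% of genes did) and 3 a higher one (8.4%). SLC7A5 differed by -0.80 (SE 0.084, adjusted p = 6.91e-06), SLC3A2 by -0.50 (SE 0.078, adjusted p = 0.000272) and SLC7A6 by -0.44 (SE 0.097, adjusted p = 0.00469). SLC38A2 differed by 0.44 (SE 0.10, adjusted p = 0.00779), SLC43A1 by 0.38 (adjusted p = 0.0442) and SLC38A1 by 0.24 (adjusted p = 0.0375). The values of SLC43A1 and SLC38A1 fell short of the threshold in 12 and 10 of 15 fits that left out 1 pair, and the other 4 did so in 0. SLC1A5 (-0.068, SE 0.14, adjusted p = 0.847), SLC7A1 (0.18, SE 0.10, adjusted p = 0.279), SLC1A4 (-0.021) and SLC7A11 (-0.42, adjusted p = 0.0559) did not pass. On log2(TPM + 1) the median gene differed by 0.10 between the subtypes, with 598 genes lower and 2845 higher against 959 and 1084 in the count test, and on log2(TPM + 0.1) SLC7A6 no longer passed (-0.30, adjusted p = 0.0588).

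Lines of the same subtype also differed from each other. Within the GCB subtype, K422 had a larger reduction than HT of SLC7A5 (-0.42, SE 0.11, adjusted p = 0.0238) and SLC3A2 (-0.50, SE 0.11, adjusted p = 0.00658). SLC38A1 fell in K422 and stood at 0.014 in HT, a difference of -0.34 (adjusted p = 0.0475). SLC7A11 had a higher response in K422 (0.93, SE 0.18, adjusted p = 0.00328). In this contrast 10.6% of genes passed, 5.83% as lower and 4.76% as higher. The SLC38A1 difference was lost in 11 of 15 fits without 1 pair and the SLC7A5 difference in 4, and the latter also on log2(TPM + 1) (-0.48, adjusted p = 0.0512). Within the ABC subtype, TMD8 exceeded OCI-Ly10 for SLC1A4 (above), SLC7A11 (1.03, SE 0.22, adjusted p = 0.0371) and SLC7A5 (0.56, SE 0.12, adjusted p = 0.0371). The last 2 were lost in 9 and 8 of 15 fits without 1 pair, and on log2(TPM + 1) with 0.37 (adjusted p = 0.0633) and 0.50 (adjusted p = 0.119). The mean effect over the ABC lines for SLC7A5, -0.009, thus averages 1 line with a lower and 1 with a higher fitted value.

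Whether the response grew with time was tested as the mean effect at 18 and 24 h minus that at 6 and 12 h. The fit held 1 effect per subtype and period, so differences in response between lines entered the spread and lowered the power. TMD8 has no pair at 12 h, so the early ABC mean weighs OCI-Ly10 more than the late one does. A lack of calls therefore cannot show that the response was constant. No member passed in either subtype by edgeR, DESeq2 or limma-voom, and 0 of 10 members had an unadjusted p below 0.05 by any of these. Among all 12910 genes, 0 passed in the ABC lines (0.0%) and 1 in the GCB lines (0.00775%, as higher). The member values lay between -0.14 and 0.28 in the ABC lines and between -0.19 and 0.24 in the GCB lines. For SLC1A5 the ABC value averages OCI-Ly10 and TMD8, which ran in opposite orders over time. Single time points were not tested.

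Levels also varied among the DMSO libraries of a line. In OCI-Ly10 under DMSO, SLC38A1 went from 57.95 TPM at 6 h to 88.06 TPM at 24 h and SLC38A2 from 30.86 to 57.37 TPM, with each later library above the one before. SLC38A1 under AZD8186 stayed between 47.04 and 54.43 TPM in that line. SLC1A4 in TMD8 nearly doubled under DMSO, from 17.63 to 33.96 TPM, while its treated libraries stayed between 40.71 and 47.71 TPM. Change over time under DMSO was not tested.

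Members that shared a pattern over the 15 log2 ratios were SLC3A2 with SLC7A6 (Pearson r = 0.953), SLC7A5 with SLC3A2 (0.894), SLC7A5 with SLC7A6 (0.843) and SLC1A5 with SLC7A1 (0.807). Among 12900 other genes, the 5 most like SLC7A5 were EHD3, an endocytic recycling protein (r = 0.97), the translation initiation factor EIF4H (0.938), the kinase NEK6 (0.935), PIK3CG, the catalytic subunit of PI3Kγ (0.931), and the calcium pump ATP2A3 (0.925). The 5 most like SLC1A5 were CBX6, a Polycomb protein (0.947), and DDX21, GRWD1, RRP1 and RRP12 (0.933, 0.927, 0.92 and 0.90), which act in ribosome production. SLC38A2 was most like ARFGEF1 (0.885), SLC37A2 (0.884), the cohesin subunits RAD21 (0.878) and STAG2 (0.874), and MIER1 (0.875). The 15 pairs come from 4 lines, so points of a line share that line, and values picked as the highest of 12900 are a description.

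Other genes of amino acid supply were counted from lists. Of 21 other transporters of the cell surface, 9 could be tested in the ABC lines, with 2 lower and 2 higher (list median -0.30, all genes 0.0072), and 6 in the GCB lines, with 0 lower and 1 higher (median 0.059). Of all genes 13.8% were lower and 15.3% higher in the ABC lines, and 23.5% and 25.9% in the GCB lines. SLC43A2 (LAT4), a relative of the member SLC43A1, rose in both subtypes, by 0.95 (SE 0.15, adjusted p = 0.000481) in the ABC and 0.82 (SE 0.093, adjusted p = 8.31e-06) in the GCB lines. In the ABC lines the glutamine carrier SLC38A5 fell by 0.58 and the glutamate carrier SLC1A1 fell by 0.90. SLC36A4 (-0.16, adjusted p = 0.0525) and the taurine carrier SLC6A6 (0.15, adjusted p = 0.0769) were next in the GCB lines and did not pass.

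Of the lysosomal carriers and the sensors that report amino acids to the Rag GTPases, 5 of 36 were lower and 3 higher in the ABC lines (median 0.017), and 5 of 34 lower and 16 higher in the GCB lines (median 0.14, all genes 0.025). The shares of all genes were 13.8% and 15.3% in the ABC lines and 23.5% and 25.9% in the GCB lines, so the lower count in the ABC lines was near the background. In the GCB lines CASTOR2, of the arginine sensor family, rose by 1.02 (SE 0.12, adjusted p = 8.71e-06) and SESN3, a Sestrin, rose by 0.71 (SE 0.087, adjusted p = 1.59e-05), whereas SEH1L of the GATOR2 complex fell by 0.48. In the ABC lines SEH1L fell by 0.29 and the Rag GTPase RRAGC fell by 0.25. The list holds members that act for and against mTORC1, so its count has no single direction.

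Of the GCN2 and ATF4 axis, which answers to amino acid shortage, 8 of 21 genes were lower and 0 higher in the ABC lines (median -0.21), and 9 of 20 lower and 3 higher in the GCB lines (median -0.25), beside 13.8% and 15.3% of all genes in the ABC lines and 23.5% and 25.9% in the GCB lines. ATF4 itself fell by 0.45 in the ABC lines (SE 0.086, adjusted p = 0.00199) and fell by 0.33 in the GCB lines (SE 0.051, adjusted p = 0.000119). The glutathione-degrading enzyme CHAC1 fell by 1.36 in the ABC lines (SE 0.18, adjusted p = 0.000158), where EIF2S1, which encodes the initiation factor eIF2α, fell by 0.32. CHAC1 stood at -0.33 in the GCB lines and did not pass (adjusted p = 0.159). In the GCB lines DDIT4 fell by 0.75 and EIF2S1 fell by 0.59, whereas EIF2AK3, which encodes the kinase PERK, rose by 1.17 (SE 0.10, adjusted p = 1.19e-06). Of the members, SLC38A2 and SLC1A4 rose in the GCB lines, whereas SLC7A5, SLC1A5, SLC7A1, SLC7A6 and SLC3A2 fell, as given above. Which of the members answer to ATF4 in these lines was not tested.

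To place the members on the genome, promoter sequences were read from RefSeq on GRCh38.p14, from 250 bases before to 50 after each annotated start, for 9 of the 10 genes, all but SLC7A11, with 16 starts in all. Genes that rose and genes that fell are both among those with a match, as shown by the sites below. The E-box CACGTG, which MYC-type factors bind, reads the same on both strands and lay in 3 of the 16 windows and in 7.26% of all 35116 promoters. Its letters are in capitals. In SLC7A5 it began 130 bases before the start at chr16:87869621-87869648 on the minus strand, in SLC43A1 112 bases before the start at chr11:57515798-57515825 on the minus strand, and in SLC1A5 50 bases before 1 of its annotated starts, at chr19:46787327-46787354 on the minus strand.
SLC7A5: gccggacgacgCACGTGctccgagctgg
SLC43A1: agcgggcgagtCACGTGcgcgtgaaact
SLC1A5: gcgggagtggtCACGTGgacaggacggg

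The motif TGATGNAA, the core of sites that ATF4 shares with C/EBP factors, was searched on both strands and shares no overlap with the E-box matches. It lay in 5 of the 16 windows and in 3.62% of all promoters, and by gene in 5 of 9 members and 4.46% of all genes. The matches, in capitals, were at chr2:64989381-64989410 (plus strand, reverse orientation) for SLC1A4, chr11:62881725-62881748 (plus strand, reverse orientation) for SLC3A2, chr12:46266502-46266531 (minus strand) for SLC38A1, chr13:29595663-29595692 (minus strand) for SLC7A1 and chr19:46784893-46784922 (minus strand) for SLC1A5. The motif began 7, 4 and 97 bases before the start in SLC1A4, SLC38A1 and SLC1A5, and at bases 38 and 8 after it in SLC3A2 and SLC7A1. For SLC1A4, SLC3A2, SLC38A1 and SLC1A5 that start lies inside the gene span given above and not at its outer end. SLC1A4 rose in K422 and TMD8, and the other 4 genes, SLC3A2, SLC38A1, SLC7A1 and SLC1A5, fell in K422. SLC3A2 passed as higher in TMD8. A match describes the letters of a window, and neither binding nor the start in use was measured.
SLC1A4: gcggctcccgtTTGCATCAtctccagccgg
SLC3A2: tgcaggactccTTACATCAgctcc
SLC38A1: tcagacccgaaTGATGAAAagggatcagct
SLC7A1: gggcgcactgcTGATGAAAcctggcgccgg
SLC1A5: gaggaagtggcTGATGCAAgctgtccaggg
The whole stretch of 250 bases before the SLC7A5 start is shown because SLC7A5 had the largest fall in the GCB lines beside SLC1A5. It lies at chr16:87869508-87869757 on the minus strand, with 79.6% G and C and the E-box in capitals.
SLC7A5 upstream: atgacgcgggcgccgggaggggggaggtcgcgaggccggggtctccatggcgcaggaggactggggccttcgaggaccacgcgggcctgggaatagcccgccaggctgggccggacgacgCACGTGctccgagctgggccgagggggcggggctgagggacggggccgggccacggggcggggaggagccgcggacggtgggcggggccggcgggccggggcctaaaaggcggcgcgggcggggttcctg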

How the data were processed

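The authors aligned reads with HISAT2 to RefSeq transcripts on GRCh38.p12 and summarised them per gene with RSEM, for which no version is stated. As for units, the deposited expected counts are estimates that need not be whole and were rounded; the deposited TPM values were used as levels and on log2 scales. The deposited FPKM values were not used. RefSeq promoters, on GRCh38.p14, were used for sequence only.

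Each treatment test was edgeR 4.0.16 quasi-likelihood (R 4.3.3) with TMM scaling, filterByExpr and Benjamini-Hochberg adjustment over all genes passing, at adjusted p below 0.05. The subtype fits held cell line and time point. The fits for lines, differences and time held the pair of libraries. To check the pairs, the mean of each line and treatment was subtracted first. What remained of each treated library was then correlated with what remained of the DMSO libraries of its line. In 14 of 15 cases r was highest for the same time point (r from -0.02 to 0.289 over the 15 pairs). The replicate numbers mark time points and not shared cultures by label. Ratios within pairs were differences of log2 CPM (prior count 2). Alternatives were DESeq2 1.42.0, limma-voom (limma 3.58.1), other scaling, filters, pseudocounts of 1 and 0.1, designs and leaving out 1 pair. The fits were run on simulated counts, drawn with the same spread for every gene and no effect of pair or time point, unlike real cultures. A 1.5-fold change was called for 91.0% of the changed genes in the ABC fit and in the GCB fit. For the difference between subtypes it was called for 43.3%, so a lack of a call there cannot show equal effects. The members and lists were chosen with earlier results of these data known. Named genes were all members, SLC7A5 copies, the 3 genes of each list with the smallest p per subtype, and the 5 genes most like SLC7A5, SLC1A5 and SLC38A2; 1 list gene that this rule names is not reported here. Depth, 15820230 to 23579029 counts a library, leaves SLC7A11 (35 to 294 counts) as the member with the fewest counts. Its SE was not the largest in every test. It was 0.18 against 0.20 for SLC1A4 in the ABC lines, and 0.15 against 0.16 for SLC1A5 in TMD8.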

Additional observations from a re-analysis of the deposited data

Results flagged for a closer look

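Of 80 groups of 4 or more values examined for a single value far from the rest, 4 held one, and chance gives about 1 in 20. In HT under DMSO the 24 h library stood apart with 185.44 TPM of SLC3A2, below the others, and with 8.36 TPM of SLC38A2, above the others. In HT with AZD8186 the 6 h library stood apart with 16.46 TPM of SLC43A1. Among the 7 ABC pairs, the log2 ratio of SLC38A1 in TMD8 at 6 h stood apart at -0.72.

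The AZD8186 effect differed between these GCB and ABC lines by the test of the difference itself for 6 members. The GCB minus ABC values were -0.80 for SLC7A5, -0.50 for SLC3A2, -0.44 for SLC7A6, 0.24 for SLC38A1, 0.44 for SLC38A2 and 0.38 for SLC43A1. Between the GCB lines, K422 minus HT was -0.42 for SLC7A5, -0.50 for SLC3A2, 0.93 for SLC7A11 and -0.34 for SLC38A1. Between the ABC lines, TMD8 minus OCI-Ly10 was 0.56 for SLC7A5, 1.2 for SLC1A4 and 1.03 for SLC7A11.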

How the results depend on the processing

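The counts of members lower in the ABC lines (3) and in the GCB lines (5) and higher in the GCB lines (2) were the same with the replicate block (pair of libraries), 3, 5 and 2, and the block changed no other member call in the subtype fits. In the fits that had the pair, using no replicate block gave 4 in place of 6 members that differed between subtypes, 25 in place of 28 calls in single lines, 7 calls between lines of a subtype (SLC1A5 in place of SLC38A1 for K422 minus HT) and 0 over time. In the ABC lines 5 members were lower on log2(TPM + 1) and on log2(TPM + 0.1), which add SLC43A1 and SLC7A6, and 1 with treatment alone, where line and time enter the spread; 1 member in place of 0 was higher with limma-voom. With treatment alone 1 member in place of 2 was higher in the GCB lines. The 7 calls between lines of a subtype became 3 at an adjusted p below 0.01 and 4 on log2(TPM + 0.1). Leaving out 1 pair at a time gave 3 to 3 lower and 0 to 1 higher members in the ABC lines, 5 to 6 and 2 to 2 in the GCB lines, 4 to 7 differing between subtypes, 21 to 30 in single lines, 3 to 11 between lines (3 without HT at 18 or 24 h, 11 without TMD8 at 6 h) and 0 to 0 over time, and leaving out 1 DMSO library gave 49 to 51 calls among the 60 contrasts between DMSO levels, gained calls included, with 47 of the 51 calls kept throughout. Of 4027 member values under alternatives, 4 reversed: SLC38A1 and SLC3A2 in K422 minus TMD8 under DMSO went from -0.38 and -0.19 to 0.024 and 0.28 on log2(TPM + 1) and to 0.025 and 0.28 on log2(TPM + 0.1). A further 83 values of results that had not passed changed sign. With the sign kept, a call was lost in 118 values when 1 pair or 1 DMSO library was left out, and in 55 under the other alternatives. A call was gained in 32 and 39 values. The cause of these changes was not tested, although the median gene shifts with scale as given above. Low counts limit SLC7A11.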
